A study of Mus musculus with 4 samples.

Results

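Integrins are paired adhesion receptors of an alpha and a beta subunit, and 8 of their subunit genes were examined together with Icam1, the cell surface protein that one of these receptors binds. The 9 genes were chosen by name (Itgal, Itgb2, Icam1, Itga4, Itgb1, Itgb7, Itgae, Itgav and Itgb3) out of 19505 gene symbols on the array. The choice was made with earlier results of these data known. Each had 1 array feature, a set of probes for one gene, among 22206 gene features. CD8+ T cells of C57/BL6 mice, taken from lymph nodes and spleens, were activated for 3 days with beads carrying antibodies to CD3 and CD28, in medium with interleukin 2. Transcript levels were measured with Clariom S Mouse arrays. The spermidine group had 25 µM of this polyamine in the medium (2 arrays), and the control group was left untreated (2 arrays). Activation, interleukin 2 and culture time were common to both groups. Which animals or cultures the replicates came from is not given in the labels, and each p-value therefore reflects nothing beyond the spread among these 4 samples.

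In T cells, integrins switch between a resting and a ligand-binding form when signals from the antigen receptor or chemokine receptors reach their tails inside the cell. The alpha L beta 2 pair (Itgal with Itgb2, LFA-1) holds a killer T cell against its target or its neighbours through ICAM-1. The alpha 4 chain (Itga4) binds VCAM-1 when paired with beta 1 (Itgb1) and the gut vessel protein MAdCAM-1 when paired with beta 7 (Itgb7). The alpha E beta 7 pair (Itgae, CD103, with Itgb7) binds E-cadherin of epithelia and marks many tissue-resident CD8+ T cells. The alpha v chain (Itgav) pairs with beta 3 (Itgb3), among others, and binds vitronectin and related matrix proteins.

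Values are log2 signals, and they are compared only within a gene because features differ in probe response. A background level of 6.35 was taken from 23 features with probes against sequences absent from the genome (their 95th percentile), and signals under this level are hard to read as expression. All 9 genes lay above it on every array, between 8.05 and 13.87. The 4 arrays had medians of 5.13 to 5.25 and pairwise correlations of 0.989 to 0.994 across gene features. The markers fixed for CD8+ T cells were bright on all arrays, with Cd8a at 16.58 and 16.57 in spermidine cultures and 16.66 and 16.68 in control cultures. In a bulk sample, fewer cells of a type and less RNA per cell cannot be told apart.

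The sequence upstream of Icam1 is shown because Icam1 is the ligand gene of the set and its signals did not overlap between the groups; that of Itga4, whose signals overlapped, is set beside it. RefSeq promoters of build GRCm38.p6 were found for 5 of the 9 genes (Icam1, Itga4, Itgav, Itgb1 and Itgb7), and the 250 bases upstream of the annotated start are printed 5′ to 3′ on the gene's strand. The Icam1 stretch is chr9:21015690-21015939 on the plus strand and the Itga4 stretch is chr2:79255176-79255425 on the plus strand. Capitals mark every match, on either strand, to any of 5 motifs.
Icam1: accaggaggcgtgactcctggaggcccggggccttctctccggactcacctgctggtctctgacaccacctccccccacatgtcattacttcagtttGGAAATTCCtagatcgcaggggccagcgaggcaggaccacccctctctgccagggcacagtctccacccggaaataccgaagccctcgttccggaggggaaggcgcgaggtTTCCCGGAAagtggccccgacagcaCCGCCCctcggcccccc
Itga4: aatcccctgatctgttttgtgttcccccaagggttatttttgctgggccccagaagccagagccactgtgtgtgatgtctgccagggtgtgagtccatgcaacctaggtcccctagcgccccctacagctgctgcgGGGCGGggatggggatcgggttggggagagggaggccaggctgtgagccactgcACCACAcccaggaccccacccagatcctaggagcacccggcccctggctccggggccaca
A core form of the NF-κB site was searched as GGAANTTCC. The site of interferon-activated STAT factors was searched as TTCNNNGAA. The GC box, which SP1-like factors bind, was searched as GGGCGG. A further motif was the RUNX site, searched as TGTGGT. The TATA box, which positions the start in many inducible genes, was searched as TATAAA. These letters were chosen with the known Icam1 promoter in mind, and no matches in the 5 promoters overlapped. Icam1 held GGAAATTCC at bases 153 to 145 upstream of the start. It held TTCCCGGAA at bases 42 to 34, and a GC box on the opposite strand at bases 17 to 12. Of 32851 mouse promoter stretches of this length, 0.813% held the NF-κB form, 7.02% the STAT form and 32.7% a GC box. Among the 5 genes only Icam1 held the NF-κB and STAT forms, while Itga4, Itgb1 and Icam1 each held a GC box. The RUNX letters occurred in Itga4, on the opposite strand at bases 60 to 55 upstream, and in 14% of all promoters. None of the 5 held the TATA letters, which 12.4% of all promoters hold. A match describes letters in this window and is not evidence of binding.

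The comparison addressed how transcript levels of the adhesion receptors and of Icam1 differed between activated CD8+ T cells with spermidine and without it. Icam1 and Itgb3 had the largest differences of the 9 genes, 1.6-fold and 1.74-fold higher with spermidine. Itgal was slightly higher and Itgb2 slightly lower in both spermidine arrays, while Itga4, Itgb1, Itgb7, Itgae and Itgav overlapped between the groups. None of these differences was called after adjustment over all features. Of the 9 genes, 0 passed an adjusted p of 0.05 (limma with Benjamini-Hochberg adjustment), as did 0% of the 22206 features tested. At an unadjusted p under 0.05 (limma) there were 2 of 9, Icam1 and Itgb3, against 7.02% of all features. Because the 9 genes were chosen with earlier results known, the shares set beside them here and below are no test. With 2 arrays a group, an exact permutation test cannot go below a two-sided p of 0.33, so none was run.

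The groups separated with spermidine higher in 3 genes (Itgal, Icam1 and Itgb3), as they did in 18.3% of all features. They separated with spermidine lower in 1 gene (Itgb2), as in 18.4% of all features. In either direction the groups did not overlap in 4 of 9 genes, against 36.7% of all features, and in the remaining 5 they overlapped. The median difference over the 9 genes was 0.20 (log2), with 7 higher and 2 lower, against a median of -0.01 over all features. Regardless of direction, the median size was 0.21 for the 9 genes and 0.20 for all features, so the sizes were close to those of the typical feature on the array.

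**Figure D1:**
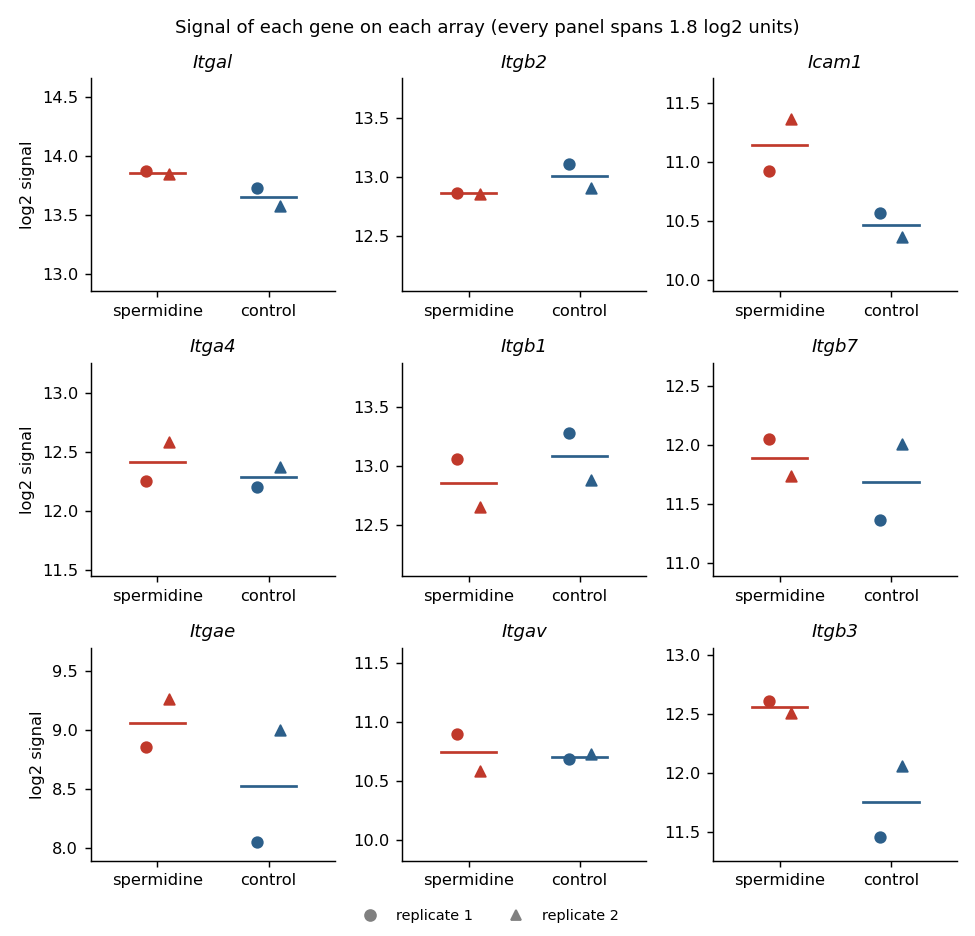
The log2 signal of each of the 9 genes on each array, with spermidine cultures in red and control cultures in blue, circles for replicate 1, triangles for replicate 2 and lines for group means. Every panel spans the same height. Icam1, Itgb3 and Itgal have both red points above both blue points, Itgb2 has both below, and the other 5 genes overlap.

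Icam1, the immunoglobulin-family ligand of LFA-1 that activated lymphocytes themselves display, had log2 signals of 10.93 and 11.37 in spermidine cultures and 10.57 and 10.37 in control cultures. Both spermidine arrays were higher than both control arrays, and the difference of group means was 1.55 times the larger gap within a group. The mean was 11.15 ± 0.31 with spermidine and 10.47 ± 0.14 without (SD, n = 2 each). The log2 difference was 0.68 ± 0.25 (SE, 95% interval 0.11 to 1.26), with an unadjusted p of 0.0257 and an adjusted p of 0.666 in limma. Leaving out 1 array gave from 0.46 without spermidine replicate 2 to 0.90 without spermidine replicate 1. The sign could not turn in these fits, because both spermidine arrays were above both control arrays. Among all features 4.88% had a larger difference in size.

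Itgal, the alpha chain of LFA-1, had 13.87 and 13.85 in spermidine cultures and 13.73 and 13.58 in control cultures. The spermidine arrays were closely alike and both higher, and the log2 difference was 0.20 ± 0.22 (SE; 95% interval -0.31 to 0.71; adjusted p = 0.887, limma). Itgb2, the beta chain it needs to reach the surface, had 12.87 and 12.86 in spermidine cultures and 13.11 and 12.91 in control cultures. Both spermidine arrays were lower, by a mean of -0.15 ± 0.22 (SE; 95% interval -0.66 to 0.37; adjusted p = 0.925, limma), which is less than the gap of 0.20 between the control arrays. Without control replicate 1 Itgb2 stood at -0.04, and without control replicate 2 at -0.25. Itgal stood at 0.13 without control replicate 2.

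Itgb3, the beta chain of the vitronectin receptor, had 12.61 and 12.51 in spermidine cultures and 11.46 and 12.06 in control cultures. The spermidine arrays were close to each other and above both control arrays, of which replicate 1 was the lower. The means were 12.56 ± 0.07 with spermidine and 11.76 ± 0.42 without (SD, n = 2 each), a difference 1.34 times the gap between the control arrays. The log2 difference was 0.80 ± 0.26 (SE, 95% interval 0.19 to 1.41), with an unadjusted p of 0.0169 and an adjusted p of 0.637 in limma. It was 0.50 without control replicate 1 and 1.09 without control replicate 2. Its partner Itgav had 10.90 and 10.59 in spermidine cultures and 10.69 and 10.73 in control cultures. The control arrays of Itgav lay between the spermidine arrays, and the log2 difference was 0.04 ± 0.23 (SE; 95% interval -0.50 to 0.57; adjusted p = 0.989, limma). As a ratio of spermidine over control this interval runs from 0.709 to 1.48, so the data do not show that Itgav was alike in both groups.

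The alpha 4 chain gene Itga4 had 12.25 and 12.58 in spermidine cultures and 12.20 and 12.37 in control cultures. Spermidine replicate 1 lay between the control arrays, and the log2 difference was 0.13 ± 0.24 (SE; 95% interval -0.42 to 0.67; adjusted p = 0.944, limma). Itgb1, the common beta chain of the alpha 4 and many matrix-binding integrins, had 13.06 and 12.65 in spermidine cultures and 13.28 and 12.88 in control cultures. In each group replicate 1 was higher than replicate 2, by 0.41 with spermidine and 0.40 without, and the log2 difference between groups was -0.22 ± 0.26 (SE; 95% interval -0.83 to 0.38; adjusted p = 0.9, limma). This difference was smaller than the gap between replicates, and it was -0.02 without spermidine replicate 2, -0.03 without control replicate 1, -0.42 without control replicate 2 and -0.43 without spermidine replicate 1. Itgb1 had the largest lower difference of the set with all 4 arrays. Without spermidine replicate 2 Itgb2 was the lowest, at -0.14. Without control replicate 1 Itgb7 was the lowest, at -0.12, and Itgb2 stood at -0.04.

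Itgb7, the beta chain of the gut-homing and epithelial integrins, had 12.05 and 11.74 in spermidine cultures and 11.37 and 12.01 in control cultures. Both spermidine arrays lay within or just above the range of the control arrays, which were 0.64 apart, and the log2 difference was 0.21 ± 0.28 (SE; 95% interval -0.45 to 0.86; adjusted p = 0.917, limma). Its sign turned without control replicate 1 (-0.12). Itgae, the CD103 chain, had 8.85 and 9.26 in spermidine cultures and 8.05 and 9.0 in control cultures. The control arrays were 0.95 apart and enclosed spermidine replicate 1, and the log2 difference was 0.53 ± 0.34 (SE; 95% interval -0.26 to 1.31; adjusted p = 0.803, limma). Without control replicate 1 the Itgae difference was 0.05, and without control replicate 2 it was 1.0, so its size rests on which control array is used. Control replicate 1 was also the lowest array for Itgb3, Itgb7 and Itga4, and without it the median over the 9 genes was 0.04.

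**Figure D2:**
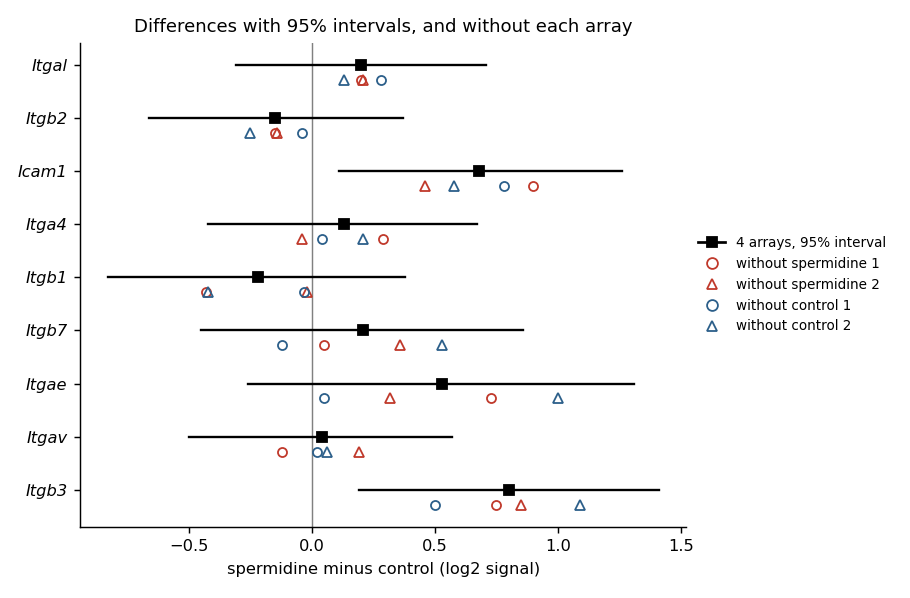
Spermidine minus control difference of each gene in log2 signal (black square) with its 95% interval from limma (line), and below it the difference when 1 array is left out (open symbols, red for a spermidine array and blue for a control array). The intervals of Icam1 (0.11 to 1.26) and Itgb3 (0.19 to 1.41) lie above 0 before adjustment, the other 7 span 0, and Itgae moves between 0.05 and 1.0.

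Because a receptor needs both chains, the alpha minus beta log2 signal was taken within each array and set relative to its control mean. This quantity shows unequal change of the chains and not which chain moved, and it was not tested. For Itgal over Itgb2 it was 0.35 in both spermidine arrays, against -0.02 and 0.02 in the control arrays. The mean shift was 0.35, and arrays of one group were at most 0.05 apart. For Itgav over Itgb3 it was -0.66 and -0.86 with spermidine and 0.28 and -0.28 without, also without overlap. The groups thus separated in 2 of the 6 pairings formed from these subunits, which share members. For Itgal over Itgb2 this follows from the array orders of the single genes given above and adds nothing to them. Single features separated in 36.7%, a share that does not say how often pairings separate.

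The pairings of alpha 4 and alpha E did not separate the groups. Itga4 over Itgb1 stood at -0.03 and 0.73 in spermidine arrays and -0.28 and 0.28 in control arrays. Itga4 over Itgb7 stood at -0.40 and 0.25 in spermidine arrays and 0.24 and -0.24 in control arrays. In these pairings the larger gap within a group (0.75 and 0.65) exceeded the mean shift (0.35 and -0.08). Itgae over Itgb7 had a mean shift of 0.32 with a gap of 0.72, and Itgav over Itgb1 a mean shift of 0.26 with a gap of 0.44.

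**Figure D3:**
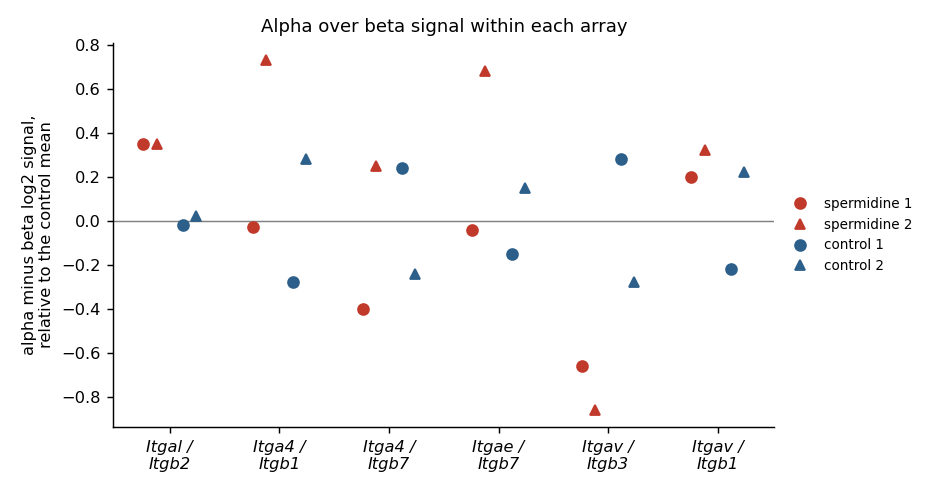
Alpha minus beta log2 signal within each array, relative to the mean of the control arrays, for 6 pairings. Spermidine arrays are red and control arrays blue, with circles for replicate 1 and triangles for replicate 2. Itgal over Itgb2 stands at 0.35 in both spermidine arrays, and Itgav over Itgb3 at -0.66 and -0.86, while the other 4 pairings overlap.

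Other integrin subunits were mostly at background. Of 12 further alpha chains measured, 8 were higher and 4 lower with spermidine, with a median of 0.13 (log2), and 0 passed the adjusted test in either direction. Only 3 of the 12 (Itga2, Itga2b and Itga6) had a group mean above 6.35. Itga6, the laminin receptor chain, had 10.87 and 10.52 in spermidine cultures and 10.64 and 10.43 in control cultures, and these overlapped. Itga2b, the platelet partner of beta 3, stood at 6.61 and 6.67 in spermidine cultures and 6.46 and 6.61 in control cultures, only just above background. Of 4 further beta chains, 3 were higher and 1 lower (median 0.12), and 0 passed. Itgb6, an epithelial partner of alpha v, had 6.36 and 6.69 in spermidine cultures, above both control arrays at 5.04 and 5.85. The control signals of Itgb6 lay below the background percentile, so its difference of 1.08 ± 0.31 (SE, adjusted p = 0.637, limma) is no measure of the fold. Itga5, named after its values were seen, had a difference of 0.91 between signals that were all below background.

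Ligand genes other than Icam1 were largely dim as well. Of 13 measured, 8 were higher and 5 lower (median 0.01, against -0.01 over all features), and 0 passed. Groups separated with spermidine higher in 2 and lower in 1 of these, against 18.3% and 18.4% of all features. Icam4 and Icam5, the genes next to Icam1 on its chromosome in RefSeq, stayed below background on every array, with differences of -0.18 and 0.12. The alpha 4 ligand genes Vcam1 and Madcam1 and the alpha v ligand gene Vtn were also below background throughout. Icam2, another ligand of LFA-1, had 7.78 and 7.39 in spermidine cultures and 8.18 and 7.61 in control cultures, and the groups overlapped (difference -0.31 ± 0.28, SE). Lgals3bp was brighter, with 10.93 and 11.78 in spermidine cultures and 10.98 and 11.50 in control cultures. Its groups overlapped too (difference 0.11 ± 0.33, SE). Tgfb1, whose latent protein is bound by alpha v integrins, had 13.37 and 13.32 in spermidine cultures and 13.99 and 13.63 in control cultures. Both spermidine arrays were lower (difference -0.46 ± 0.23, SE; adjusted p = 0.741, limma).

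Genes that control the switch of integrins from inside the cell, by activating or restraining it, were examined as 1 list. Of 20 measured, 9 were higher and 11 lower with spermidine (median -0.05), and 0 passed in either direction. Groups separated with spermidine higher in 3 and lower in 4 of these, against 18.3% and 18.4% of all features. Talin 1 (Tln1) and kindlin 3 (Fermt3), which bind beta tails, differed by 0.19 and 0.07, and these were named after their values were seen. The largest statistics belonged to the Rap1 exchange factor Rasgrp2 (-0.67 ± 0.30, SE), the adaptor Fyb (-0.32), Dok1, which competes with talin for beta tails (-0.28), and the small GTPase Rap1b (-0.25). Rasgrp2 had 12.19 and 11.37 in spermidine cultures and 12.55 and 12.34 in control cultures, so both spermidine arrays were lower.

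Of 19 measured genes of the adhesion complex under bound integrins, 7 were higher and 12 lower (median -0.10), and 0 passed. Parvg, a parvin of blood cells that joins integrin-linked kinase to actin, had 10.51 and 10.31 in spermidine cultures and 11.39 and 10.80 in control cultures, a difference of -0.68 ± 0.27 (SE; adjusted p = 0.689, limma). The adhesion kinase gene Ptk2b differed by 0.50, and the scaffold genes Pxn and Zyx by -0.42 and -0.43. The groups did not overlap in these 4 genes, which were named for their large statistics. Over the 19 genes the groups separated with spermidine higher in 5 and lower in 7. The shares over all features were 18.3% and 18.4%. Of 12 membrane partners of integrins, including tetraspanins, 3 were higher and 9 lower (median -0.16), and 0 passed. Those with the largest statistics were Cd226 (-0.54), which associates with LFA-1, the tetraspanins Cd9 (0.35) and Cd37 (-0.33), and the amino acid transporter chain Slc3a2 (-0.31), which binds beta 1 tails.

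Of 9 genes of selectin-mediated rolling and homing, 3 were higher and 6 lower (median -0.17), and 0 passed. Gcnt1, which builds the core sugar branch that selectin ligands carry, stood at 6.70 in both spermidine arrays and at 5.90 and 5.14 in control arrays. These control signals lay below background. Klf2, a transcription factor of lymphocyte recirculation, had 9.73 and 9.88 in spermidine cultures and 10.32 and 10.60 in control cultures (difference -0.65 ± 0.23, SE; adjusted p = 0.661, limma). Selp and Fut7, which makes the fucose cap of selectin ligands, differed by -0.55 and -0.49. Klf2, Selp and Fut7 were lower in both spermidine arrays, and were named for their large statistics. Over this list of 9 the groups separated with spermidine higher in 2 and lower in 4. The shares over all features were 18.3% and 18.4%.

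The signals known to induce Icam1, those of NF-κB and interferon, were examined as a list. Of 11 measured genes, 8 were higher and 3 lower (median 0.07), and 0 passed. Groups separated with spermidine higher in 3 and lower in 1 of these, against 18.3% and 18.4% of all features. The NF-κB feedback inhibitors had the largest values, as Tnfaip3 differed by 1.06 ± 0.45 and Nfkbia by 0.59 ± 0.25 (SE; adjusted p = 0.706 for each, limma). Nfkbia had 12.58 and 12.99 in spermidine cultures and 12.07 and 12.33 in control cultures, without overlap. Tnfaip3 had 11.49 and 12.34 in spermidine cultures and 10.20 and 11.51 in control cultures, and the groups overlapped. The receptor gene Tnfrsf1a (-0.51) and the cytokine gene Tnf (-0.48) were lower in group mean, Tnf with overlap. Other genes of the list were named after their values were seen. The receptor gene Tnfrsf1b had 10.15 and 10.66 in spermidine cultures and 10.12 and 9.92 in control cultures, a difference of 0.39 without overlap. The interferon genes Ifng, Irf1, Ifngr1 and Ifngr2 differed by -0.14, 0.07, 0.08 and 0.04. The NF-κB subunit genes Rela and Relb differed by 0.22 and 0.00, with overlap, but Relb stayed below background on every array. The part of these signals in the Icam1 values was not tested.

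Genes around TGF-β, which induces Itgae in T cells, and tissue residency gave 6 higher and 5 lower of 11 measured (median 0.18), and 0 passed. Tgfbr2, a receptor chain, had 10.99 and 11.20 in spermidine cultures and 10.45 and 10.73 in control cultures, a difference of 0.50 ± 0.23 (SE). The pathway inhibitors Ski and Skil differed by 0.67 and 0.36, and both were higher in both spermidine arrays. Tgfb1, given above, was the lower one of the 4 with the largest statistics. Over the 11 genes the groups separated with spermidine higher in 5 and lower in 2. The shares over all features were 18.3% and 18.4%.

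**Figure D4:**
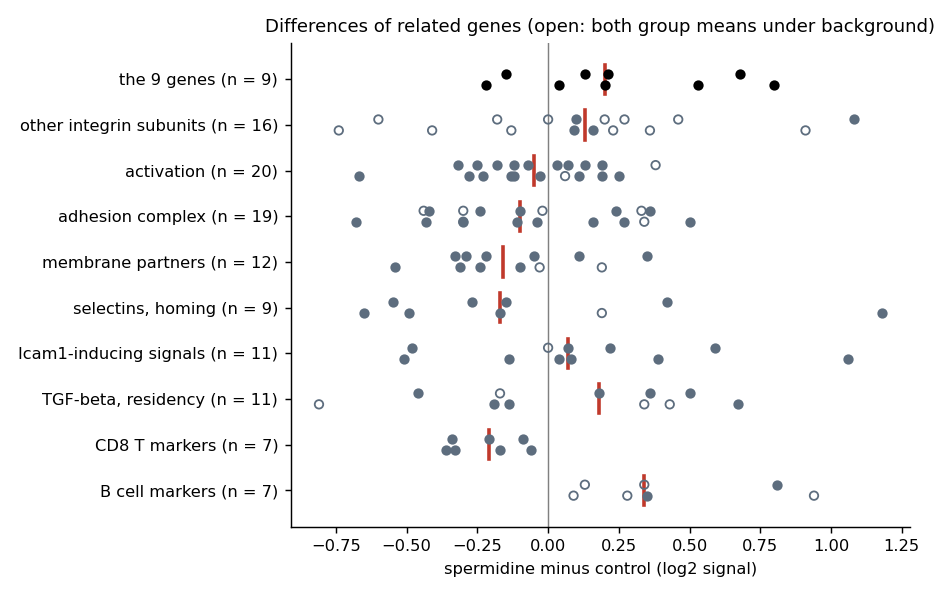
Spermidine minus control differences in log2 signal for the 9 genes (black) and for the measured genes of the plotted lists (grey). Each point is 1 gene, and the red bar is the list median. The ligand genes and the markers of cells other than CD8+ T cells and B cells are not plotted. Open points had both group means below 6.35. The medians lie between -0.21 for CD8+ T cell markers and 0.34 for B cell markers, and no gene shown passed the adjusted test.

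Markers of other cells that carry integrins or ICAM-1 were read in the same arrays. B cell markers were higher in 7 of 7 measured genes (median 0.34), with a summed linear signal of 541 to 685 in spermidine arrays and 438 to 458 in control arrays. Of these, Cd79a and Cd79b had a group mean above background, Cd79a at 7.40 and 7.15 with spermidine and 6.44 and 6.50 without, while Ms4a1, Pax5, Blk, Cd22 and Fcrla stayed below it. CD8+ T cell markers were lower in 7 of 7 genes (median -0.21), with a summed signal of 318960 to 326447 in spermidine arrays and 368204 to 394062 in control arrays. In both lists 0 genes passed the adjusted test, and of all features 49.1% were higher with spermidine. The part of either list in the Icam1 and integrin values was not tested. The 9 macrophage, 6 dendritic cell, 4 platelet and 5 neutrophil markers measured had 0 members with a group mean above background. Of the platelet genes Ppbp had 4.66 and 5.95 in spermidine cultures and 3.05 and 3.99 in control cultures, and Pf4 differed by 0.33. Of the 3 CD4+ T cell markers, Zbtb7b differed by 0.76, from signals near background, and Cd4 by -0.06. Of the 2 natural killer cell markers, Klrb1c differed by 0.11 and Ncr1 stayed below background.

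The genes closest in pattern were sought for the members with the largest higher and lower difference, by the Euclidean distance between log2 values centred over the 4 arrays, among 8488 named genes above background. For Itgb3 they were Tbc1d12 (distance 0.111), Impdh1 (0.124) and Tecpr1 (0.137), which had log2 differences of 0.85, 0.91 and 0.93. For Itgb1 they were Atp6v0e (0.0273), Vasp (0.0276) and Ddx20 (0.0278), with differences of -0.21, -0.24 and -0.22. All of these genes share the 4 arrays, and likeness over so few samples is a description only.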

How the data were processed

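The authors deposited log2 signals for the features of Clariom S Mouse arrays. Per the submitters' processing notes they come from RMA in Affymetrix Expression Console (versions not given in the sources used here). RMA includes background correction and quantile normalization, which can affect the differences of dim features. The log2 base was read from the range of the values, whose highest gene feature per array was 19.74 to 19.93. Any further rescaling is unknown, and the folds given rest on this base. Of 28846 features, 6640 controls were set aside. The platform annotation named 19572 gene features with 1 symbol, 0 with several, and left 2634 unnamed; the brightest feature represents a symbol. All 19572 symbols matched RefSeq by Entrez identifier, 0 with a new name.

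Groups were compared with limma 3.58.1 (R 4.3.3; lmFit, then eBayes with 5.96 prior and 2 residual degrees of freedom). Each SE of a difference, interval and p-value thus uses a variance drawn partly from the spread of all features, not from 1 gene alone. Tests were two-sided, and p-values were adjusted by Benjamini-Hochberg across the 22206 gene features at 0.05. The fit was tested on simulated data. Arrays have no read depth; their number limits the precision (median SE of a difference 0.246). From each list other than the cell type markers, up to 4 genes with the largest statistics and a group mean above background were named. Some further genes were named outside this rule. The 9 genes and the lists were chosen with earlier results of these data known. Alternatives were other priors, array weights, normalizations, filters on dim features, the replicate block, 1 feature per symbol and leaving out each array.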

Additional observations from a re-analysis of the deposited data

How the results depend on the processing

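None of the 9 genes passed the adjusted threshold under any of the 14 alternative fits, and their adjusted p ran from 0.335 to 1. The number of features called was 0 with all arrays and 0 without any 1 array. It was 1, Hmox1 each time, with a prior variance following intensity, after median centring, after cyclic loess, among features above the median level and with the replicate block. Without adjustment, p lay under 0.05 in 1558 features and in 2 of the 9 genes. The median difference over the 9 genes, 0.20, was 0.24 after a further quantile normalization and 0.26 after cyclic loess, and ran from 0.04 to 0.21 when 1 array was left out. The sign turned for 3 genes in 1 fit each: Itgav at -0.12 without spermidine replicate 1 (range -0.12 to 0.19), Itga4 at -0.04 without spermidine replicate 2 (range -0.04 to 0.29) and Itgb7 at -0.12 without control replicate 1 (range -0.12 to 0.53). The cause was not tested. The replicate numbers are shared by the groups, but the labels name no shared animal or day; deviations of same-numbered arrays correlated at 0.21 across features, and the replicate block left 0 of the 9 genes called. Each gene had 1 feature, so using every feature of a symbol could give no other value.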
